A study of Mus musculus with 24 samples.

Results

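The genes *Fgf5*, *Otx2*, *Pou3f1*, *Utf1*, *Zic2* and *Zic5* are used as markers of the formative and primed epiblast, and their 6 entries were taken by gene name from the 25965 entries of an RNA-seq table of differentiating male mouse embryonic stem cells (mESCs). Male C57/Bl6 mESCs were grown in 2i medium, which holds them in the naive state, and were then weaned into serum-containing DME HiHi medium without directing them to a lineage. On day 2 of differentiation the cells were transduced with a retrovirus carrying a short hairpin RNA, puromycin was added on day 3, and RNA was harvested on days 4, 5, 6 and 7. The nonsilencing control (Nons) group had 1 library per day, and each knockdown had 2 per day. *Smarcc1* was targeted by hairpins Smarcc1.6 and Smarcc1.7, and *Smarca4* by hairpins Smarca4.4 and Smarca4.6. All groups, Nons included, therefore carried a hairpin and were under puromycin selection. The 4 libraries of a second Nons series were not analysed here, so a knockdown library had only 1 Nons library of its day to be compared with, and the spread between Nons cultures was not measured. Nothing in the sources says whether the 4 days of a hairpin came from separate transductions. The *p*-values of the main fit rest on the spread between the 2 hairpins of a knockdown on the same day. They treat the 4 days of a series, Nons included, as independent.

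*Smarcc1* encodes a core scaffold subunit of the BAF chromatin remodelling complex, and *Smarca4* encodes its ATPase, which slides and evicts nucleosomes. When mESCs leave the naive state they pass through a formative state that resembles the early postimplantation epiblast, and then become primed for differentiation into the germ layers. *Fgf5* encodes a secreted fibroblast growth factor and is a classical marker of the postimplantation epiblast. *Otx2* encodes a homeodomain transcription factor that directs enhancer use during exit from the naive state, and *Pou3f1* (also called Oct6) encodes a POU-domain transcription factor that appears at the same time. *Utf1* encodes a chromatin-associated cofactor of pluripotent cells. *Zic2* and *Zic5* encode zinc finger transcription factors with later roles in the neural tube and neural crest.

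The sites targeted by the hairpins are shown first because every comparison below rests on them. Each is printed on the sense strand, 5′ to 3′, and the capitals mark the bases that pair with the seed of the guide strand (guide bases 2 to 8).
Smarcc1.6: gcaggatgaagaagCAGTTACa
Smarcc1.7: tcagaaggaagaagATGAGCAa
Smarca4.4: actggagtcagacaGTAATAAa
Smarca4.6: actgatgaacactaTTATGCAa
In GENCODE M21 on GRCm38 (mm10) the site of Smarcc1.6 lay in coding exon 13 of *Smarcc1* (chr9:110177472-110177493, plus strand), and that of Smarcc1.7 in coding exon 11 (chr9:110173911-110173932). The site of Smarca4.6 lay in coding exon 22 of *Smarca4* (chr9:21670504-21670525, plus strand), and that of Smarca4.4 in exon 34, within the 3′ untranslated region (chr9:21703327-21703348). None of the 4 sites was found in an annotated transcript of another gene, and 0 transcripts of the 6 epiblast genes held a whole site. In the longest coding transcript of each epiblast gene the 7 seed-paired bases occurred once, for Smarca4.4 in *Zic5*, whereas 13.3% of 21877 genes held that stretch.

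The targeted transcripts were lower in every library of their own knockdown. *Smarcc1* was at 23.7 to 60.1% of same-day Nons in the 8 *Smarcc1* knockdown libraries, a log2 change of -1.33 ± 0.205 (SE; adjusted *p* = 0.00115, limma). *Smarca4* was at 21.6 to 55.3% of Nons in the 8 *Smarca4* knockdown libraries, a change of -1.79 ± 0.288 (adjusted *p* = 0.00277, limma). A genotype label of the *Smarca4* libraries names Smarcc, and the sample titles were followed. Library totals ranged from 6829596 to 27472885 reads. A floor was set at 3 reads, which were worth 0.109 to 0.439 rpm, the unit of reads scaled to library size. The 6 genes had between 121 and 11346 reads in a library, so none was near that floor.

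Scaled by exon length, *Utf1* was the most abundant of the 6 genes, with a median over the 20 libraries of 179 rpm per kb of merged exon (range 101 to 393). *Pou3f1* followed at 33.0 (16.6 to 63.6), *Zic2* at 20.1 (7.49 to 31.4), *Otx2* at 17.6 (7.05 to 42.0), *Zic5* at 9.48 (6.96 to 16.1) and *Fgf5* at 6.81 rpm per kb (2.87 to 21.3). The range of *Utf1* did not overlap that of any other gene, whereas each further neighbour in this order overlapped the next. On the mm10 coordinates of the table *Fgf5* spanned chr5:98254184-98277030 (plus strand), *Otx2* chr14:48657679-48667644 (minus), *Pou3f1* chr4:124657646-124660655 (plus) and *Utf1* chr7:139943789-139945112 (plus). *Zic5* (chr14:122456795-122465677, minus) and *Zic2* (chr14:122475435-122479852, plus) are neighbours read in opposite directions, with 9757 bp between them. No annotated gene overlapped any of the 6.

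Averaged over the 4 days, *Fgf5* and *Otx2* were called lower than in Nons in both knockdowns. The other 4 genes did not pass the test in either. With the culture series entered as a replicate block, only the *Fgf5* call in *Smarcc1* knockdown held. For *Otx2*, both *Smarcc1* knockdown libraries of day 7 were above Nons. *Fgf5* was at 40.5% of Nons in *Smarcc1* knockdown and 46.7% in *Smarca4* knockdown, while *Otx2* was at 73.0% and 65.8%. These are means over the 4 days on the log2 scale, tested with limma on 13296 genes and called at a Benjamini-Hochberg adjusted *p* below 0.05. Of all genes tested, 10.6% were called between *Smarcc1* knockdown and Nons (3.08% lower and 7.54% higher) and 6.71% between *Smarca4* knockdown and Nons (1.96% lower and 4.75% higher). These shares come from the fit without the replicate block. The median of the 6 genes was -0.31 in *Smarcc1* knockdown and -0.12 in *Smarca4* knockdown, beside a median of all genes of 0.06 in both. The 2 contrasts share the same 4 Nons libraries, so they are not separate evidence.

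**Figure D1:**
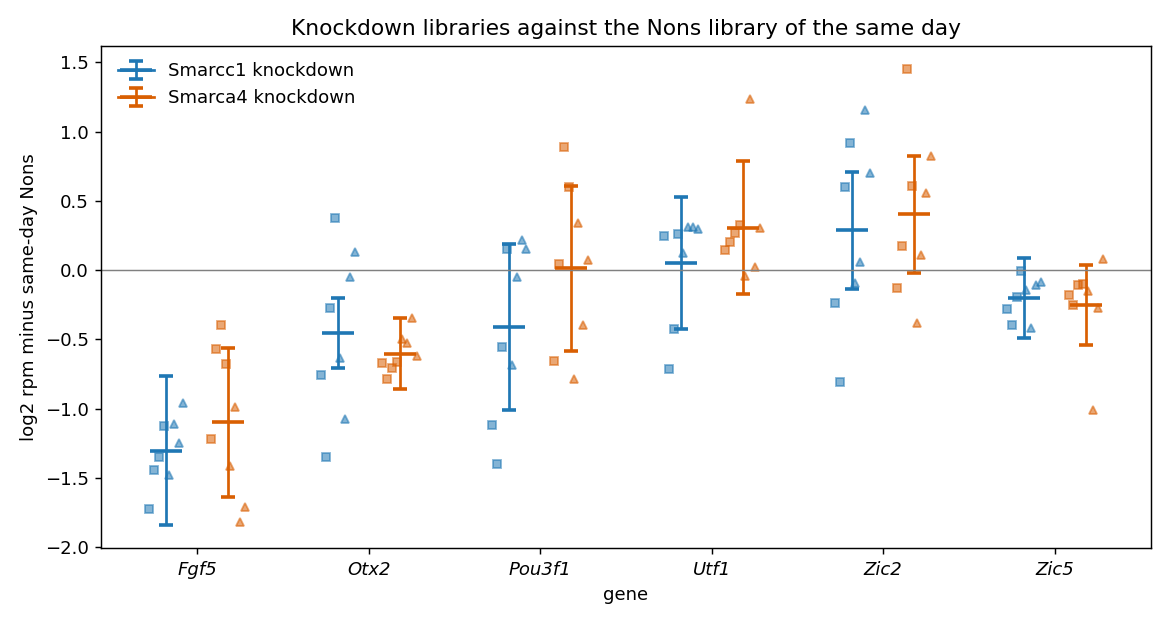
Difference of each knockdown library from the Nons library of its day (log2 rpm, y axis) for the 6 genes (x axis); squares are hairpins Smarcc1.6 and Smarca4.4, triangles Smarcc1.7 and Smarca4.6, and the bar and whiskers give the limma estimate with its 95% confidence interval. All 16 points of *Fgf5* lie below 0, and the whiskers of *Pou3f1*, *Utf1*, *Zic2* and *Zic5* cross 0 in both knockdowns.

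*Fgf5*, the secreted ligand, had 26.4, 53.2, 41.9 and 23.4 rpm in Nons on days 4, 5, 6 and 7. With Smarcc1.6 it had 7.99, 19.6, 16.5 and 10.8 rpm on those days, and with Smarcc1.7 it had 9.47, 24.6, 17.6 and 12.0 rpm. With Smarca4.4 it had 11.3, 35.9, 31.8 and 14.7 rpm, and with Smarca4.6 it had 9.89, 26.9, 11.9 and 7.17 rpm. All 8 libraries of each knockdown were below Nons of the same day, at 30.3 to 51.3% of it in *Smarcc1* knockdown and 28.4 to 76.0% in *Smarca4* knockdown. The log2 change was -1.31 ± 0.249 in *Smarcc1* knockdown (adjusted *p* = 0.00450, limma). In *Smarca4* knockdown it was -1.10 ± 0.249 (adjusted *p* = 0.0193, limma). The 2 *Smarcc1* hairpins differed by 0.33 log2 units at most, whereas Smarca4.6 was below Smarca4.4 on every day and by 1.42 log2 units on day 6. The *Smarcc1* call held in every alternative analysis. Leaving out a *Smarcc1* hairpin kept the *Smarca4* estimate at -1.10 and left fewer hairpin pairs to measure the spread. The *Smarca4* call was lost when the culture series was entered as a replicate block (adjusted *p* = 0.0820), without Smarca4.6 (log2 change -0.72, adjusted *p* = 0.0623), and without either *Smarcc1* hairpin (0.0576 without Smarcc1.6 and 0.0566 without Smarcc1.7, limma).

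*Otx2*, the homeodomain factor, had 106, 170, 106 and 45.2 rpm in Nons on days 4 to 7. With Smarcc1.6 the values were 62.5, 66.6, 87.5 and 58.6 rpm, and with Smarcc1.7 they were 68.0, 80.8, 102 and 49.5 rpm. With Smarca4.4 they were 66.4, 98.7, 64.7 and 28.5 rpm, and with Smarca4.6 they were 74.8, 118, 82.9 and 29.3 rpm. In *Smarca4* knockdown all 8 libraries were below Nons, at 58.0 to 78.5% of it, on every day. In *Smarcc1* knockdown the 4 libraries of days 4 and 5 were at 39.1 to 64.4% of Nons, those of day 6 at 82.9 and 96.8%, and those of day 7 above Nons at 130 and 110%. Averaged over days the log2 change was -0.60 ± 0.118 in *Smarca4* knockdown (adjusted *p* = 0.00871, limma) and -0.45 ± 0.118 in *Smarcc1* knockdown (adjusted *p* = 0.0261, limma). Leaving out a *Smarca4* hairpin kept the *Smarcc1* estimate at -0.45 and left fewer hairpin pairs to measure the spread. The *Smarcc1* call was lost with the replicate block (adjusted *p* = 0.129), in an additive model of group and day (0.140), when any 1 of the 4 hairpins was left out (0.0624 to 0.0969) and after adjusting for library GC content (0.05005, limma). The *Smarca4* call was lost with the replicate block (0.0657), in the additive model (0.0648) and without Smarca4.4 (0.114) or Smarca4.6 (0.0528, limma).

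The day course of *Otx2* in the 2 *Smarcc1* hairpin series had its highest value on day 6, whereas Nons and both *Smarca4* hairpin series had it on day 5. The difference between *Smarcc1* knockdown and Nons was -0.70, -1.21, -0.16 and 0.25 log2 units on days 4, 5, 6 and 7. A test of whether this difference changed over the days gave *F* = 7.36 with an unadjusted *p* of 0.00418, but an adjusted *p* of 0.302 over all genes (limma), so it was not called. None of the 6 genes was called in this test for either knockdown, and 0.256% of all genes were called for *Smarcc1* and 0.00752% for *Smarca4*. For *Otx2* in *Smarca4* knockdown the daily differences stayed between -0.66 and -0.53, with *F* = 0.0636.

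**Figure D2:**
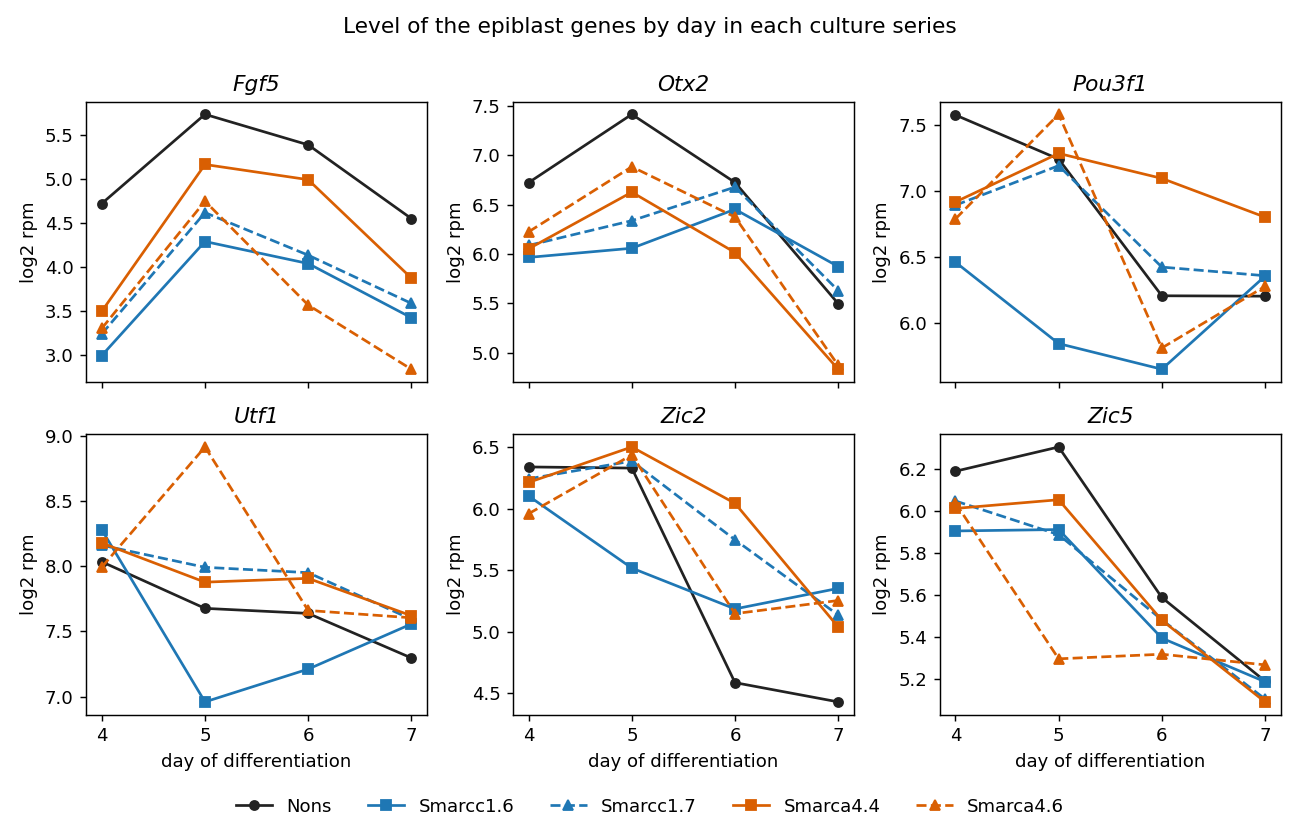
Level of each gene (log2 rpm, y axis) on days 4 to 7 (x axis) in the 5 culture series, with 1 library per point and no error bars; the y axes differ between panels. *Fgf5* was highest on day 5 in all 5 series, and *Otx2* was highest on day 6 only in the 2 *Smarcc1* hairpin series.

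The upstream sequences of *Fgf5* and *Otx2* are shown because these were the genes called lower in both knockdowns. Each is the 250 bases before the RefSeq start site on GRCm38.p6 that matched the start of the gene's entry. They are printed on the gene's strand, 5′ to 3′, with CpG dinucleotides in capitals. The annotated *Otx2* gene extends further upstream, to chr14:48673819, and a window before that outer start was not examined. RefSeq start regions were matched for 4 of the 6 genes, not for *Pou3f1* and *Zic2*.
Fgf5, chr5:98253934-98254183, plus strand: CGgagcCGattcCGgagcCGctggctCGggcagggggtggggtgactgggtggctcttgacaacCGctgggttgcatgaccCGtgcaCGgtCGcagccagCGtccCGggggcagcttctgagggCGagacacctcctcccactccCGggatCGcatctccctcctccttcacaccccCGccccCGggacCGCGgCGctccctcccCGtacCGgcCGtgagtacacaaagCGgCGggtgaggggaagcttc
Otx2, chr14:48667645-48667894, minus strand: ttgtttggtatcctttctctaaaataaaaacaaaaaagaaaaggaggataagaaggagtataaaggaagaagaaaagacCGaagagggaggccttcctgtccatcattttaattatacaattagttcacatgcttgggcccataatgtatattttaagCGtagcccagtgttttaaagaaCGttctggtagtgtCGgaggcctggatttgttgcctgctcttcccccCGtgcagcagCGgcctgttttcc
The 2 windows differed in composition. The *Fgf5* window held 24 CpG dinucleotides and was 70.8% G or C, and 12.0% of 32851 RefSeq windows of this length held as many. The *Otx2* window held 6, the median of all windows, and was 42% G or C. Neither window held the POU octamer ATGCAAAT or the OTX core TAATCC on either strand, letters found in 1.6% and 6.25% of all windows.

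*Pou3f1*, the POU-domain factor, did not pass the test in either knockdown, and its libraries of a single group were widely spread. Nons had 191, 151, 73.7 and 73.6 rpm on days 4 to 7. The 8 *Smarcc1* knockdown libraries ranged from 50.1 to 146 rpm with a median of 83.9, and the 8 *Smarca4* knockdown libraries from 56.0 to 192 rpm with a median of 116. All 4 knockdown libraries of day 4 were below Nons, at 46.1 to 63.3% of it, while on day 7 all 4 were above it, at 105 to 152%. Over the days the log2 change was -0.41 (95% interval -1.01 to 0.19) in *Smarcc1* knockdown and 0.01 (-0.59 to 0.61) in *Smarca4* knockdown. The *Smarcc1* value was -0.09 without Smarcc1.6 and -0.73 without Smarcc1.7. Smarcc1.6 was 1.35 log2 units below Smarcc1.7 on day 5, and Smarca4.6 was 1.29 below Smarca4.4 on day 6.

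*Utf1*, the chromatin-associated cofactor, had 262, 204, 199 and 157 rpm in Nons on days 4 to 7. The *Smarcc1* knockdown libraries ranged from 124 to 310 rpm (median 220) and the *Smarca4* knockdown libraries from 194 to 482 rpm (median 237). In *Smarca4* knockdown 7 of 8 libraries were above Nons, with a log2 change of 0.31 that did not pass the test (95% interval -0.17 to 0.78, adjusted *p* = 0.494, limma) and was 0.15 after the GC adjustment described below. In *Smarcc1* knockdown 6 of 8 were above Nons and the change was 0.05 (-0.43 to 0.53). The lowest and the highest *Utf1* values of all 20 libraries both fell on day 5, with 124 rpm for Smarcc1.6 and 482 rpm for Smarca4.6.

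*Zic2* had 80.9, 80.4, 24.1 and 21.6 rpm in Nons on days 4 to 7. On days 6 and 7 all 8 knockdown libraries were above Nons, at 147 to 274% of it, and on day 4 all 4 were below it, at 76.9 to 93.6%. With Smarcc1.6 the values were 68.7, 45.8, 36.4 and 40.9 rpm, and with Smarcc1.7 they were 75.7, 83.6, 53.7 and 35.2 rpm. With Smarca4.4 they were 74.1, 90.5, 65.9 and 32.9 rpm, and with Smarca4.6 they were 62.2, 86.5, 35.4 and 38.2 rpm. Averaged over days the change was 0.29 ± 0.195 in *Smarcc1* knockdown (adjusted *p* = 0.430, limma) and 0.40 ± 0.195 in *Smarca4* knockdown (adjusted *p* = 0.284, limma). The *Smarcc1* value was 0.46 without Smarcc1.6 and 0.12 without Smarcc1.7, and the GC-adjusted values were 0.19 and 0.26. The change of the difference over days gave unadjusted *p* = 0.0846 and 0.151 for the 2 knockdowns, with adjusted *p* of 1.00 for both (limma). The pattern of days 6 and 7 rests on 2 Nons libraries and was not called.

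*Zic5* had 72.9, 78.9, 48.0 and 36.4 rpm in Nons and was below it in 15 of the 16 knockdown libraries, but by little. The 8 *Smarcc1* knockdown libraries were at 74.9 to 99.8% of Nons, and the *Smarca4* knockdown libraries at 49.7 to 106%, the lowest being Smarca4.6 on day 5. The log2 change was -0.20 ± 0.133 in *Smarcc1* knockdown (adjusted *p* = 0.410, limma) and -0.25 ± 0.133 in *Smarca4* knockdown (adjusted *p* = 0.339, limma). Without the Smarca4.4 library of day 5, which had the fewest reads, the latter was -0.34 and passed the test (adjusted *p* = 0.0414, limma). The neighbouring *Zic2* and *Zic5* thus had estimates of opposite sign in both knockdowns, although none of the 4 passed the test.

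The knockdowns were also compared with each other. None of the 6 genes was called, beside 4.09% of all genes. The estimate of *Smarcc1* minus *Smarca4* knockdown was -0.21 for *Fgf5* (95% interval -0.65 to 0.23) and 0.15 for *Otx2* (-0.06 to 0.36). It was -0.42 for *Pou3f1* (-0.91 to 0.06), -0.26 for *Utf1* (-0.65 to 0.13), -0.12 for *Zic2* (-0.46 to 0.23) and 0.05 for *Zic5* (-0.19 to 0.28). The intervals allow a difference of up to 0.91 log2 units for *Pou3f1* and 0.65 for *Fgf5*, so the knockdowns were not shown to act alike.

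Across days, averaged over Nons and both knockdowns, *Fgf5* and *Otx2* rose and then fell, *Zic2* and *Zic5* fell, *Utf1* passed the test only between days 4 and 7, and *Pou3f1* passed it in no comparison of days. From day 4 to day 5 *Fgf5* rose by 1.30 ± 0.271 log2 units (adjusted *p* = 0.00270, limma) and *Otx2* by 0.49 ± 0.128 (adjusted *p* = 0.00994, limma), 2 of 6 genes beside 38.7% of all genes called and 19.5% called higher. From day 5 to day 6 *Zic2* fell by 1.03 ± 0.213 (adjusted *p* = 0.00305, limma) and *Zic5* by 0.48 ± 0.145 (adjusted *p* = 0.0228, limma), 2 of 6 beside 32.3% called and 15.3% called lower. *Pou3f1* had a change of -0.83 in that step and missed the threshold narrowly (adjusted *p* = 0.0500027, limma). It passed in 10 of 16 alternatives, including the GC-adjusted values, where its change was -1.07 (adjusted *p* = 0.00338, limma). The call of *Otx2* from day 4 to day 5 was lost in the additive model (adjusted *p* = 0.0653) and without Smarca4.6 (0.0505, limma). That of *Zic5* was lost without Nons, without either *Smarcc1* hairpin and without Smarca4.4 (adjusted *p* = 0.0620 to 0.1005, limma).

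From day 6 to day 7 *Otx2* fell by 1.13 ± 0.128 log2 units (adjusted *p* = 0.000156, limma) and *Fgf5* by 0.78 ± 0.271 (adjusted *p* = 0.0486, limma), 2 of 6 beside 27.5% called and 10.6% called lower. The median of all genes rose by 0.15 log2 units in this step, so the falls are larger relative to it. The call of *Fgf5* was lost in 7 of 16 alternatives (adjusted *p* = 0.0504 to 0.153, limma). Between days 4 and 7, 4 of the 6 genes were called lower, beside 64.5% of all genes called and 28.8% called lower. *Zic2* fell by 1.26 ± 0.213, *Otx2* by 0.93 ± 0.128, *Zic5* by 0.89 ± 0.145 and *Utf1* by 0.62 ± 0.240. The call of *Utf1* was lost with quantile normalization and without Nons or either *Smarca4* hairpin (adjusted *p* = 0.0720 to 0.105, limma). *Fgf5* was back near its day 4 level, with a change of 0.06 (95% interval -0.53 to 0.64), and *Pou3f1* had a change of -0.67 (adjusted *p* = 0.0667, limma) that became -1.22 after the GC adjustment (adjusted *p* = 0.000466, limma).

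**Figure D3:**
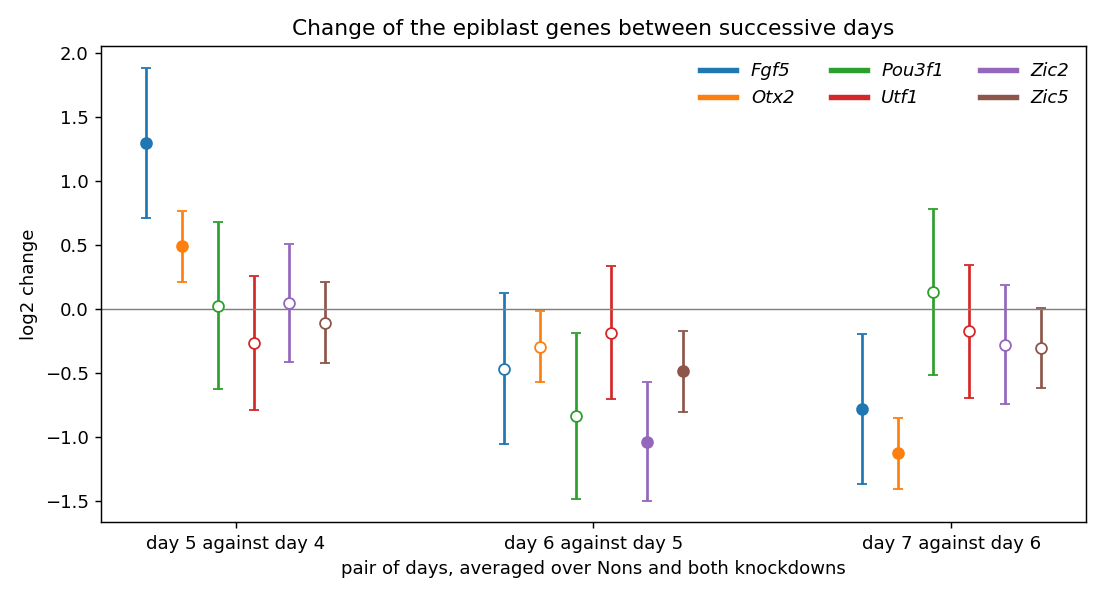
Log2 change (y axis) of each gene between successive days (x axis), averaged over Nons and both knockdowns, with 95% confidence intervals from limma; filled circles passed the adjusted threshold of 0.05 and open circles did not. *Fgf5* and *Otx2* are the filled points of the first and last step, and *Zic2* and *Zic5* those of the middle step.

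The libraries differed in how they represented GC-rich transcripts. Of the 6 genes 3 moved with this, and *Zic5* had a correlation of the opposite sign that was weak by rank. For each library the median deviation of the 10% most GC-rich genes was compared with that of the 10% most GC-poor genes, which gave from -0.99 log2 units (Smarcc1.6 on day 5) to 0.68 (Smarca4.6 on day 5). *Pou3f1*, *Utf1* and *Zic2* have GC-rich transcripts, at 63.9, 63.5 and 59.9%, above 99.3, 99.1 and 95.2% of the genes tested. After day means were removed, their levels correlated with the library measure over the 20 libraries with Pearson's *r* of 0.69 for *Pou3f1*, 0.91 for *Utf1* and 0.66 for *Zic2* (Spearman's rho 0.52, 0.81 and 0.69). Without the 2 most extreme libraries *r* was 0.45, 0.69 and 0.67. *Fgf5* and *Otx2*, at 47.0 and 46.8% GC, had *r* of 0.01 and 0.14. *Zic5*, at 49.8% GC, had *r* of -0.61 (Spearman's rho -0.31), and *r* of -0.38 without those 2 libraries. The points share 4 days and 5 culture series, and no *p* is given. The part of library GC content in the levels of *Pou3f1*, *Utf1* and *Zic2* was not tested beyond the adjustment that follows. After a cubic adjustment of each library for transcript GC, *Fgf5* changed by -1.27 in *Smarcc1* knockdown (adjusted *p* = 0.00686) and by -1.05 in *Smarca4* knockdown (0.0285, limma), and *Otx2* by -0.41 (0.05005) and -0.55 (0.0185, limma). The adjusted changes of the GC-rich genes against Nons did not pass the test. *Pou3f1* went from -0.41 to -0.52 in *Smarcc1* knockdown and from 0.01 to -0.15 in *Smarca4* knockdown. *Utf1* went from 0.05 to -0.059 and from 0.31 to 0.15, and *Zic2* from 0.29 to 0.19 and from 0.40 to 0.26, in the same order. *Zic5* was at -0.20 and -0.24 after the adjustment. Its GC content is near the median of 50.1%, where the adjustment changes little, so these values are no check of it. The part of library GC content in its level was not tested.

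**Figure D4:**
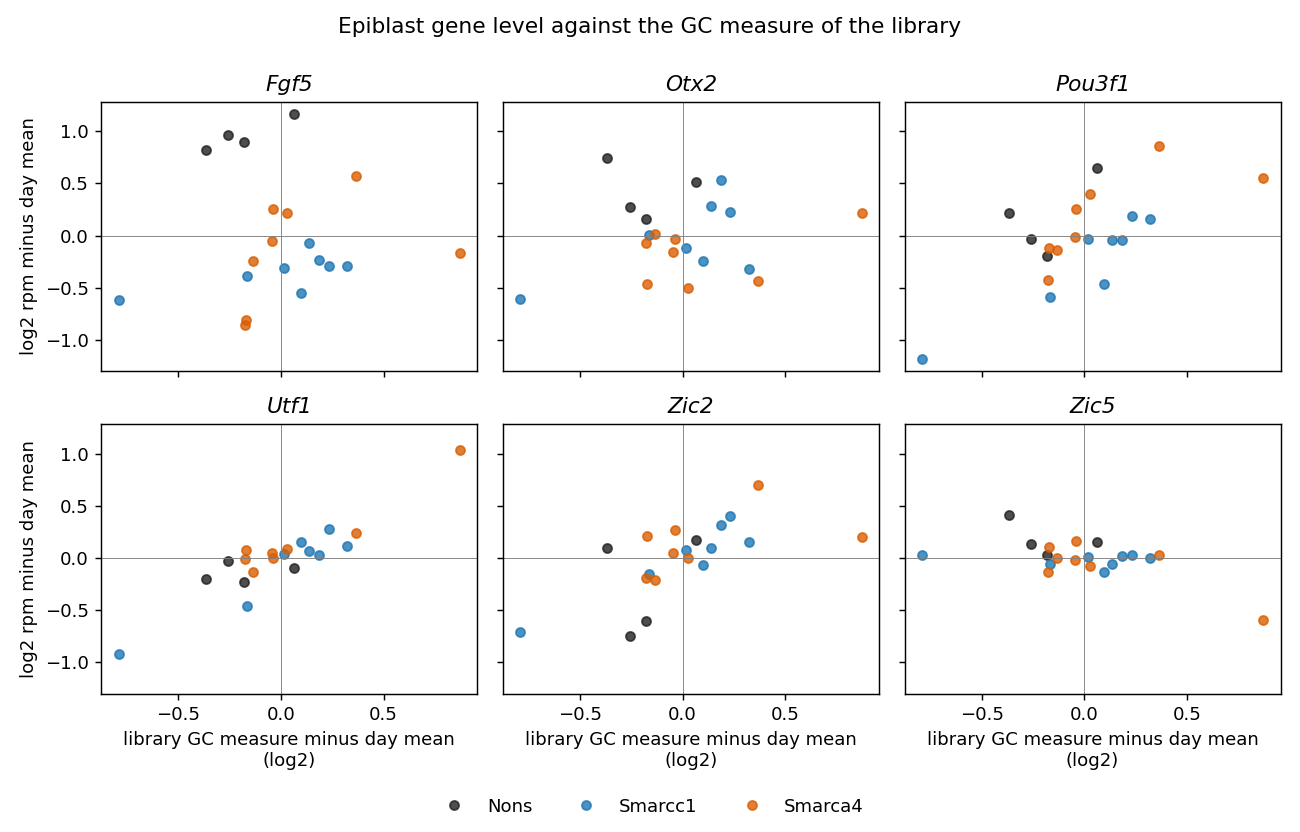
Level of each gene minus its mean over the libraries of the same day (log2 rpm, y axis) against the GC measure of the library minus its day mean (log2 units, x axis), with 1 point for each of the 20 libraries. *Utf1* follows the measure most closely, whereas the 4 Nons points of *Fgf5* (0.82 to 1.17) sit above all 16 knockdown points (-0.86 to 0.57).

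Of 16 other genes of the formative and primed epiblast, 4 were called in *Smarcc1* knockdown, beside 10.6% of all genes, and 1 in *Smarca4* knockdown, beside 6.71%. The calls of this list and of the lists below come from the fit without the replicate block. The list counts were not recomputed with the block. Most calls of *Fgf5* and *Otx2* against Nons were lost with it, so the list calls were not shown to be firmer. In *Smarcc1* knockdown 3 of them were called higher. These were *Etv4* (0.83), a transcription factor downstream of FGF signalling, *Dnmt3a* (0.81), a de novo DNA methyltransferase, and *Nodal* (0.56), a TGF-beta family ligand. The adhesion gene *Cdh2* was called lower in *Smarcc1* knockdown (-1.26, adjusted *p* = 0.0374, limma) and in *Smarca4* knockdown (-1.78, adjusted *p* = 0.00945, limma), where it was the only gene of the list called. *Cdh2* was low throughout, with 1.47 to 6.29 rpm in Nons, 0.693 to 2.20 in *Smarcc1* knockdown and 0.318 to 1.48 in *Smarca4* knockdown. The list median was 0.07 in *Smarcc1* and 0.14 in *Smarca4* knockdown. Between days 4 and 7, 11 of the 16 genes fell and 0 rose, beside 64.5% of all genes called and 28.8% called lower. The list median was -1.81, and the largest falls were in *Foxd3* (-5.24) and *Lef1* (-4.56).

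Most naive pluripotency genes tested were called higher in the same libraries. Of 12 listed genes 11 could be tested, and 8 were called higher in *Smarcc1* knockdown and 6 in *Smarca4* knockdown, with 0 called lower in either, beside 7.54 and 4.75% of all genes called higher. These counts and shares come from the fit without the replicate block, and the list counts were not recomputed with it. The list medians were 1.46 and 0.82 log2 units. In *Smarcc1* knockdown the largest rises were in the transcription factors *Klf2* (2.12), *Esrrb* (1.84) and *Klf4* (1.81), and in *Smarca4* knockdown in *Klf2* (1.65), *Esrrb* (1.24) and *Dppa3* (1.13). In *Smarcc1* knockdown *Klf5* (-0.50), *Tfcp2l1* (0.58) and *Nr0b1* (0.32) did not pass the test. In *Smarca4* knockdown 5 genes did not, *Nr0b1* (-0.57), *Klf5* (-0.43), *Klf4* (0.69), *Tfcp2l1* (0.56) and *Tbx3* (0.82). The summed level of the naive genes was 178 to 359 rpm in Nons, 315 to 808 rpm in *Smarcc1* knockdown and 286 to 587 rpm in *Smarca4* knockdown, and their part in the levels of *Fgf5* and *Otx2* was not tested. In bulk RNA, fewer cells in a state and less RNA per cell cannot be told apart. Of the core factors, *Nanog* was higher in both knockdowns (1.09 and 0.84) and *Sox2* in *Smarcc1* knockdown (0.45), while *Pou5f1* was not called in either (0.05 and -0.51).

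**Figure D5:**
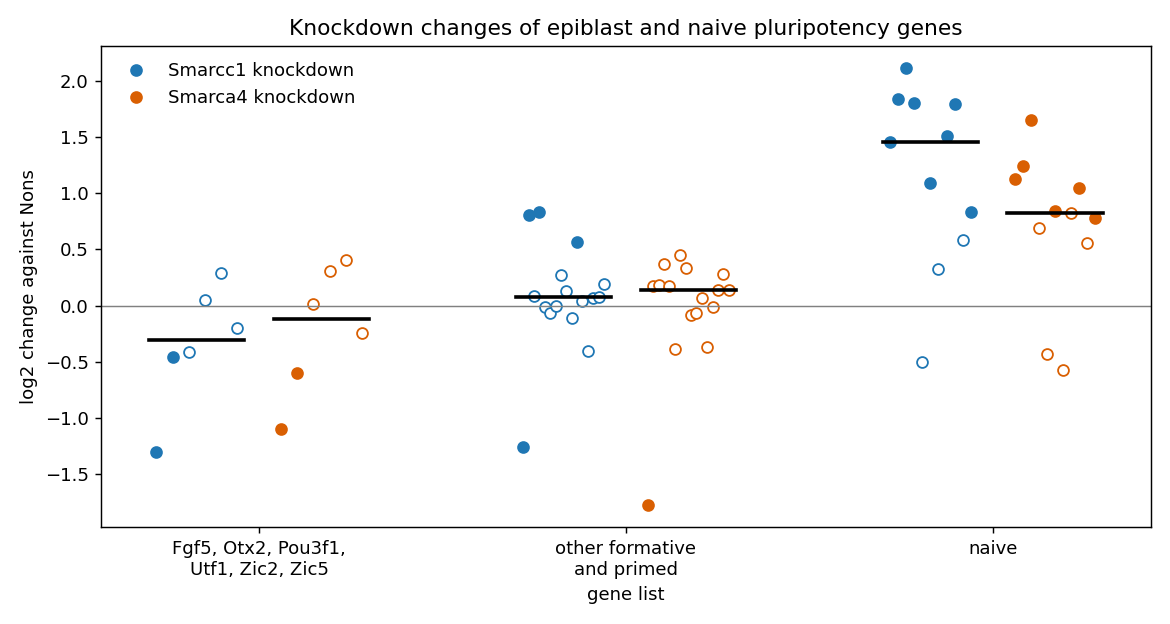
Log2 change against Nons (y axis) of the 6 genes, of 16 other formative and primed epiblast genes and of 11 naive pluripotency genes (x axis); filled circles passed the adjusted threshold of 0.05 and black lines are list medians. The naive medians are 1.46 and 0.82, whereas those of the other epiblast genes are 0.07 and 0.14.

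Markers of later or other lineages were checked in the same way, again only in the fit without the replicate block. The counts below stand beside 7.54% of all genes called higher and 3.08% called lower in *Smarcc1* knockdown. In *Smarca4* knockdown these shares were 4.75% and 1.96%. Of 5 neuroectoderm genes tested only *Sox1* was called, at 2.40 in *Smarcc1* and 2.33 in *Smarca4* knockdown. Of 2 primitive streak and mesendoderm genes tested *Wnt3* was called lower in *Smarca4* knockdown (-0.72), and the other 8 of that list were under the filter on low values. Of 5 extraembryonic endoderm genes 3 were called higher in *Smarcc1* knockdown (*Pdgfra*, *Lama1* and *Gata4*) and 1 in *Smarca4* knockdown (*Gata4*). Of 4 germ cell genes *Tfap2c* and *Ddx4* were higher in both knockdowns and *Dazl* in *Smarcc1* knockdown. Of 3 trophoblast genes *Krt7* was lower in *Smarcc1* knockdown (-1.02) and *Hand1* higher in *Smarca4* knockdown (1.35). Of 5 mesenchyme genes *Col1a1* was higher and *Twist1* lower in *Smarcc1* knockdown, and 0 were called in *Smarca4* knockdown.

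Other genes of the families of *Fgf5* and *Pou3f1* were also measured. *Fgf4* and *Fgf8* passed the filter on low values, and neither was called in either knockdown. *Fgf4* ranged from 26.5 to 379 rpm over all libraries, while *Fgf8* reached 3.14 rpm at most. *Pou3f4* and *Fgf6* had 0 reads in all 20 libraries.

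The 6 genes did not share a single pattern. Over the 20 libraries, which share days and series, *Pou3f1* correlated with *Zic2* (*r* = 0.77) and *Utf1* (0.71), and *Fgf5* with *Otx2* (0.63). With day means removed the values were 0.68, 0.68 and 0.49, in the same order. *Pou3f1*, *Zic2* and *Utf1* are the GC-rich genes that moved with the library GC measure. The part of that measure in these correlations was not tested. *Zic2* and *Zic5* correlated at 0.70, but at -0.04 once day means were removed, and *Utf1* and *Zic5* then at -0.57. The genes whose pattern over the 20 libraries was most like that of *Fgf5* were *Pla2g4a* (*r* = 0.86), *Herc6* (0.84) and *Cysltr1* (0.83). For *Otx2* they were *Ubr7* (0.93), *Cxcl12* (0.89) and *Sesn3* (0.87), and for *Pou3f1* they were *Plcg2* (0.90), *Gldc* (0.89) and *Ucp2* (0.87). For *Utf1* they were *Tgif2* (0.92), *Samd11* (0.91) and *Ddx41* (0.88). For *Zic2* they were *Dnmt3b*, *Phc1* and *Elmo1* (0.94, 0.94 and 0.93), and for *Zic5* they were *Ncbp1*, *Ppip5k2* and *Ubxn2b* (0.95, 0.94 and 0.94).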

How the data were processed

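RNA-seq of male C57/Bl6 mESCs was analysed from 20 libraries, 4 Nons, 8 *Smarcc1* knockdown and 8 *Smarca4* knockdown. Single-end 75 bp reads were trimmed by the authors with trim_galore and mapped to mm10 using tophat or HISAT2. The values they deposited are log2 rpm per gene from the SeqMonk RNA-seq pipeline. The annotation release and the use of strand are not given in the sources used here. Genes with 0 reads were stored at 0.9 of a read, from which whole reads and totals were recovered (tolerance 0.02 of a read, values below 1000 reads).

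Differences were tested with limma 3.58.1 in R 4.3.3 (trend) on the 13296 genes whose log2 rpm averaged 0 or more. The model held 12 cell means (group by day), with 8 residual degrees of freedom from hairpin pairs and Benjamini-Hochberg adjustment over all genes. The 6 genes and all gene lists were chosen with earlier results of these data known. The genes named are the 6 genes, the 2 targets, the 3 genes most correlated with each of the 6, up to 3 called genes with the largest change per list, and list genes whose level is given beside a result. *Sox2*, *Pou5f1*, *Klf5*, *Tfcp2l1*, *Nr0b1*, *Tbx3*, *Foxd3*, *Lef1* and the silent paralogs were named after their values were seen. GC content was that of the longest GENCODE M21 transcript, known for 90.0% of the genes tested. A planned count test was not run because the values are logarithms; limma-voom on recovered reads replaced it. On simulated data for *Smarcc1* knockdown against Nons, limma called 72% of 200 genes that were raised by 1 log2 unit among 13296, and 10 unchanged genes. The simulated noise was independent between libraries. The libraries of a culture series were correlated in the data (estimate 0.217), so the simulation does not show how many false calls such correlation gives. One gene of the lists is not reported here.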

Additional observations from a re-analysis of the deposited data

How the results depend on the processing

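Other filters on low values, log2(rpm + 1), centring on the median gene, quantile normalization, an additive model, a replicate block, leaving out each series or the smallest library, limma-voom, a GC adjustment, and the GC adjustment with the block were tried. The last 3 were chosen after seeing the data, and the list counts were not recomputed. Of 654 log2 changes of single genes, 568 kept their direction and their side of the threshold. Among the 220 that belong to changes called in the report, 185 did, and of 137 counts of called genes 109 stayed within 1.5 times. These 109 include every count for the comparison between the knockdowns and for the tests of change over days, which stayed at 0 throughout. The cause of the changes below was not tested.

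The number of the 6 genes called in *Smarcc1* knockdown against Nons, 2 in the report, became 1 in the additive model, with the replicate block, GC-adjusted and GC-adjusted with the block, and 1 to 2 when a hairpin or library was left out. In *Smarca4* knockdown it became 1 in the additive model, 0 with the replicate block, 0 GC-adjusted with the block, and 0 to 3 on leaving out libraries; the highest came without the Smarca4.4 library of day 5, where *Zic5* passed as well. From day 4 to 5 the count of 2 became 1 in the additive model and was 1 to 2 on leaving out series. From day 5 to 6 it became 4 GC-adjusted, with and without the block, and was 1 to 2 on leaving out series. From day 6 to 7 it became 1 without a filter, 1 with a mean of at least 10 rpm, 1 GC-adjusted and 4 GC-adjusted with the block, and was 1 to 2 on leaving out series.

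Changes of sign occurred only in values that did not pass the test. In *Smarcc1* knockdown *Utf1* (0.05) became -0.0064 centred on the median gene and -0.059 GC-adjusted, with or without the block, and ranged from -0.16 to 0.26 on leaving out series. In *Smarca4* knockdown *Pou3f1* (0.01) became -0.062 centred and -0.15 GC-adjusted, with or without the block, and ranged from -0.19 to 0.22. Between the knockdowns *Fgf5* ranged from -0.59 to 0.18, *Zic2* from -0.28 to 0.054 and *Zic5* from -0.044 to 0.14 on leaving out series. From day 4 to 5 *Zic5* became 0.015 with quantile normalization and ranged from -0.23 to 0.027, *Pou3f1* became -0.083 GC-adjusted, with or without the block, and ranged from -0.12 to 0.21, and *Zic2* ranged from -0.071 to 0.17. From day 5 to 6 *Utf1* ranged from -0.40 to 0.032. From day 6 to 7 *Pou3f1* became -0.063 centred and -0.059 GC-adjusted, with or without the block. From day 4 to 7 *Fgf5* became -0.12 centred and -0.25 with quantile normalization, and ranged from -0.082 to 0.20.

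The replicate block grouped the 4 libraries of each culture series, with an estimated correlation of 0.217. Deviations of a hairpin from its group mean correlated between days at 0.023 to 0.82 for *Smarcc1* (mean 0.33, all 6 day pairs above 0) and -0.21 to 0.37 for *Smarca4* (mean 0.093). Not every pair was above 0.1, so the fit without the block was kept, and 3 of the 4 calls against Nons were lost with the block. Numbers of hairpins pair no cultures across groups. The lone Nons library of each day is assumed to vary like the hairpin pairs. The 6 genes had at least 121 reads in every library. Without the smallest library, the day 5 level of *Zic5* in *Smarca4* knockdown came from Smarca4.6 alone, and the part of depth in that change was not tested.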
